A study of Mus musculus with 6 samples.

Results

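The 7 genes described here, Rora, Maf, Ahr, Batf, Irf4, Stat3 and Hif1a, encode transcription factors that establish or shape the Th17 fate of CD4 T cells. They were chosen by name from the 55450 genes of the deposited tables, by a rule that uses no measured value but with earlier results of these data known, and all 7 were found and passed the filter on low counts. The study asked what the RNA-editing enzyme ADAR2, which converts adenosine to inosine in double-stranded RNA, does to gene expression when Th17 cells are made to overexpress it. Naive CD4 T cells from 2 wild-type mice, called donors A and B here, gave 1 culture and 1 RNA-seq library per group. The groups were ADAR2 WT (the active enzyme), ADAR2 E396A (an enzymatically dead form) and empty vector (n = 2 each).

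All cells, those with the empty vector included, were treated alike apart from the construct. Mice were 8 to 12 weeks old. Cells were stimulated with anti-CD3 at 0.25 µg/mL and anti-CD28 at 1 µg/mL, in the presence of TGF-β at 0.1 ng/mL and IL-6 at 20 ng/mL. At 24 h they were transduced with MSCV, a murine retroviral vector. They were then kept in TGF-β at 0.3 ng/mL and IL-6 at 20 ng/mL for another 48 h, and are labelled as Th17 cells of 72 h. The labels do not say whether transduced cells were selected, so untransduced cells may be present in every group. Editing was not measured, only the abundance of transcripts.

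Th17 cells are helper T cells that secrete the IL-17 cytokines and defend barrier tissues against extracellular bacteria and fungi. IL-6 binds its receptor and gp130, activates JAK kinases, and these phosphorylate STAT3, which enters the nucleus and switches on Th17 genes. BATF and IRF4, induced through the T cell receptor, bind DNA together and open chromatin at these genes, and RORA, MAF, AHR and HIF1A then adjust the programme according to lineage, ligands and oxygen. Several of these factors, STAT3 above all, are regulated strongly at the protein level, which transcript counts do not show.

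Each library held between 16496328 and 21897166 reads assigned to genes. Adarb1, which encodes ADAR2, was at 18422 and 18999 normalized counts with ADAR2 WT, at 15644 and 14920 with ADAR2 E396A, and at 3672 and 3333 with empty vector (donors A and B). All 8 T cell markers were detected. Of the markers of other cells, these averaged at least 10 normalized counts: 2 of 5 for B cells, 1 of 6 for myeloid cells, 3 of 5 for CD8 and NK cells, 1 of 2 for gamma-delta T cells, 0 of 3 for erythroid cells and 0 of 4 for stromal cells. The gamma-delta marker Trgc1 was also listed but not found by name, so it was not measured. Ms4a1 and Ncr1, which mark B and NK cells, were at 0 in every library. In bulk RNA, fewer cells of a type and less RNA per cell cannot be told apart.

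Per unit of exon length the 7 genes spanned a wide range of levels, with Hif1a and Irf4 far above the rest. Levels here are reads per kilobase of exon, scaled to the total of assigned reads (RPKM), averaged over the 6 libraries. Hif1a averaged 300.5, with a range of 274 to 324.5, and Irf4 averaged 189, with a range of 174 to 203. Batf averaged 65.0 and Stat3 57.3, Rora 25.7 and Maf 20.0, and Ahr was lowest at 11.9. Hif1a lay above Irf4, Irf4 above Batf, Stat3 above Rora, and Maf above Ahr in 6 of 6 libraries, and Rora lay above Maf in 5. Batf lay above Stat3 in only 3 of 6, so that the order of these neighbours was within their spread. Among the 14958 genes tested, Hif1a ranked above 99.3% and Irf4 above 98.9%, and even Ahr ranked above 73.7%. The counting error of a value was at most 3.43%, for Ahr with ADAR2 WT in donor B (850 reads), and at least 0.489%, for Hif1a. These errors cover counting only, since the libraries were amplified by PCR.

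**Figure D1:**
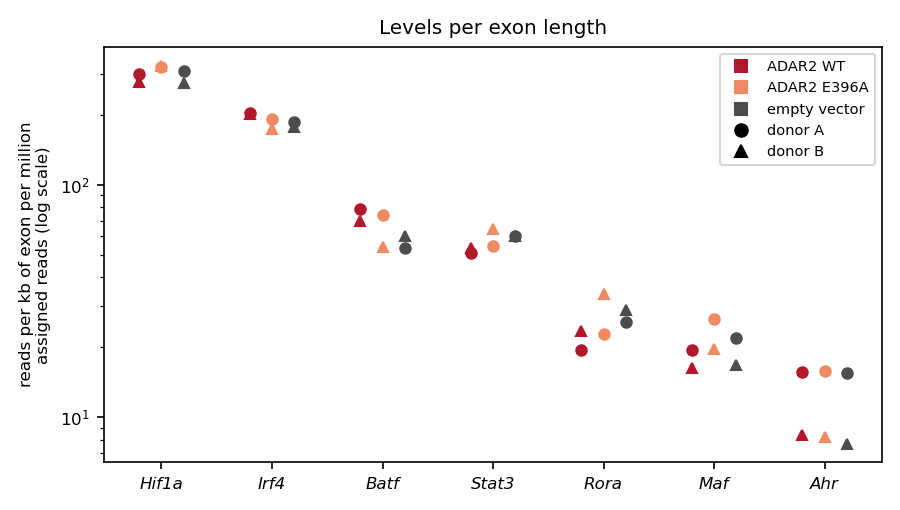
Levels of the 7 genes per exon length (RPKM, log scale). Colour marks the group, circles mark donor A and triangles donor B. Hif1a is highest in all 6 libraries, Batf and Stat3 overlap, and Ahr splits by donor between 7.69 and 15.8.

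With ADAR2 WT against empty vector, Rora, Stat3 and Batf differed most, Rora and Stat3 being lower and Batf higher in both donors, and none of the 7 passed adjustment over all genes. Under the limma test 0 of 7 members passed an adjusted p of 0.05, beside 0.816% of all genes tested (122 genes). At an unadjusted p under 0.05 there were 3 of 7 (Rora, Batf and Stat3), beside 14.1% of all genes, and edgeR and DESeq2 on the recovered reads also called 0 of 7. The libraries of the groups did not overlap for 4 of 7 members (Rora, Batf, Irf4 and Stat3), beside 37.2% of all genes. Values were higher in both donors for 2 members and lower in both for 4, beside 31.2% and 31.5% of all genes, and the median log2 difference of the 7 was -0.03. The number of members called depended on which libraries were in the fit, as did that of all genes. A fit with 1 library left out keeps a single residual degree of freedom, so its estimate of the spread is unsure. Rora, Batf and Stat3 all passed when donor A or donor B of ADAR2 E396A, or donor B of empty vector, was left out, fits that called 941, 1217 and 913 genes in all, and 0 of 7 passed when either donor of ADAR2 WT, or donor A of empty vector, was left out (1, 6 and 66 genes in all).

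With ADAR2 E396A against empty vector Maf was higher in both donors, by 0.21 in donor A and 0.22 in donor B on the log2 scale. Hif1a was higher by only 0.00024 in donor A and by 0.24 in donor B. Irf4 was lower by little in both (-0.012 and -0.040), and the other 4 differed in sign between donors. Of the 7, 0 passed, beside 0.0134% of all genes (2 genes), and 1 of 7, Maf, had an unadjusted p under 0.05, beside 3.89%, and edgeR and DESeq2 also called 0 of 7. Only for Hif1a did the groups not overlap, beside 23.4% of all genes. That rests on 36175 normalized counts with ADAR2 E396A against 36169 with empty vector, both in donor A. Donors A and B gave opposite signs for 4 of 7 members, beside 54.7% of all genes, both were higher for 2, beside 21.4%, and both were lower for 1, beside 23.9%.

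The direct comparison of ADAR2 WT with ADAR2 E396A sets the active enzyme against its dead form, and here Maf and Rora were lower with the active enzyme in both donors. Of the 7, 0 passed, beside 0.0669% of all genes (10 genes). At an unadjusted p under 0.05 there were 3 of 7 (Maf, Rora and Irf4), beside 12.4%. By edgeR 0 of 7 passed, and by DESeq2 1 of 7, Maf (DESeq2 adjusted p = 0.0437), beside 0.702% of all genes with DESeq2 (105 genes). The groups did not overlap for 3 of 7 (Irf4, Stat3 and Hif1a), beside 36.7%. Each of the 7 had the same sign in both donors, 3 higher and 4 lower, beside 32.9% and 29.6% of all genes. With donor A of ADAR2 E396A left out, Rora, Batf and Stat3 passed among 844 genes in all. With donor B of ADAR2 E396A left out only Maf did, among 217 genes, and with donor A or B of empty vector left out Rora and Maf did, among 467 and 425 genes. The constructs were each set against the same empty-vector libraries, so the 3 comparisons are not independent of one another.

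**Figure D2:**
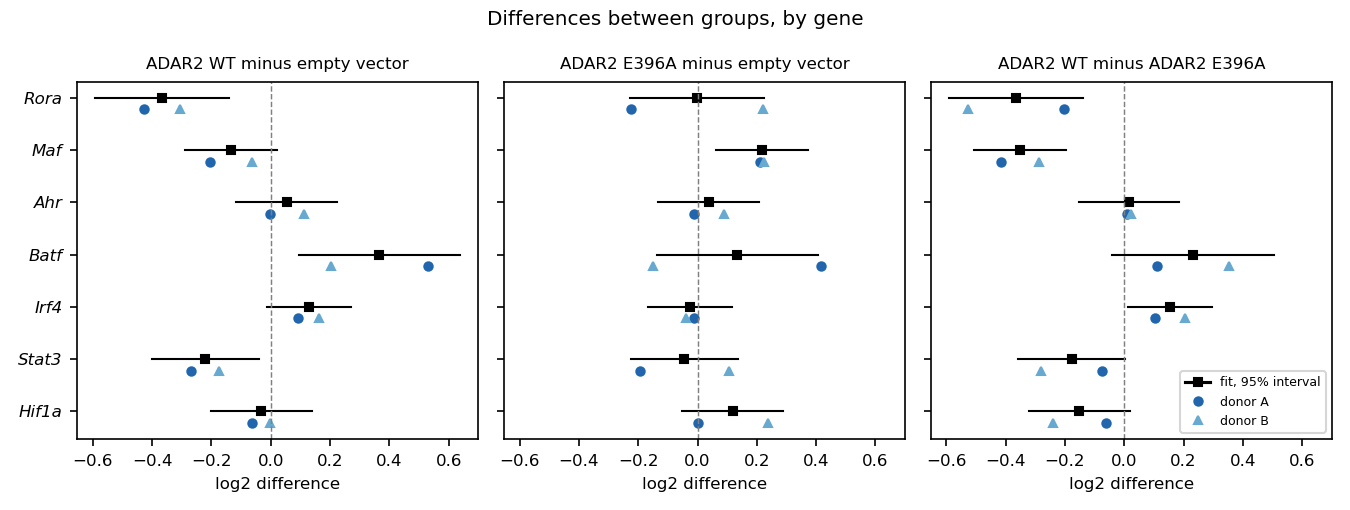
Log2 differences of the 7 genes in the 3 comparisons, ADAR2 WT minus empty vector, ADAR2 E396A minus empty vector and ADAR2 WT minus ADAR2 E396A. Squares with lines are the limma fit with its 95% interval, circles donor A and triangles donor B. Rora, Stat3 and Batf have intervals that leave out 0 in the first panel, Maf alone in the second, and Rora, Maf and Irf4 in the third.

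STAT3, the transcription factor activated by IL-6, is encoded by Stat3 (ENSMUSG00000004040.16, chr11:100885098-100939540, minus strand, mm10). Stat3 had 9468 and 9689 normalized counts with ADAR2 WT, 9963 and 11765 with ADAR2 E396A, and 11407 and 10931 with empty vector (donors A and B). Both ADAR2 WT libraries lay below both of each other group, while the ADAR2 E396A libraries lay on either side of the empty-vector pair. The log2 difference of ADAR2 WT from empty vector was -0.22 (SE 0.08, 95% interval -0.40 to -0.04, limma adjusted p = 0.269), with -0.27 in donor A and -0.17 in donor B. Against ADAR2 E396A it was -0.18 (SE 0.08, limma adjusted p = 0.414).

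Among the genes listed for the pathway that activates STAT3, Jak2 changed. Jak2, a kinase that can be coupled to cytokine receptors and that phosphorylates STAT proteins, had 17087 and 14629 normalized counts with ADAR2 WT, 12408 and 11027 with ADAR2 E396A, and 11566 and 11451 with empty vector. Jak2 rose with ADAR2 WT against empty vector by 0.46 on the log2 scale (SE 0.07, limma adjusted p = 0.0352), by 0.56 in donor A and 0.35 in donor B. The difference of ADAR2 WT from ADAR2 E396A was 0.43 (SE 0.07, limma adjusted p = 0.0787), and ADAR2 E396A differed from empty vector by 0.02 (limma adjusted p = 0.999). Over 19 other settings the adjusted p of the rise of Jak2 against empty vector ran between 5.19e-09 and 0.876, and it passed in 13. Among others, it was lost without the donor term (limma adjusted p = 0.660) and with a filter at a mean of 100 (0.0567). It was also lost without the mean-variance trend, a fit that called no gene. Without either ADAR2 WT library the rise was lost as well, with a log2 difference of 0.39 without donor A and 0.52 without donor B.

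Of the 10 genes listed for IL-6 and STAT3 control, Jak2 was the 1 that passed, with ADAR2 WT against empty vector, and 5 of the 10 were positive and 5 negative there (median -0.01, against -0.0025 over all genes tested). Il6ra and Il6st, which encode the IL-6 receptor chain and gp130, had log2 differences of -0.37 and -0.42 (limma adjusted p = 0.279 and 0.0666). Socs3, the feedback inhibitor that STAT3 induces, had -0.40 (limma adjusted p = 0.222). These 3 genes were chosen after their values were seen. They were negative in both donors, and none passed. In that comparison 4 of the 10 were lower in both donors and 4 were higher, Jak2 among them. The shares over all genes were 31.5% and 31.2%. At a limma unadjusted p under 0.05 there were 5 of 10, beside 14.1% of all genes. With ADAR2 E396A against empty vector Il6ra had -0.04, Il6st -0.21 and Socs3 0.01 (limma adjusted p = 0.999 each).

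Among 7 listed targets of STAT3, 0 passed under limma or edgeR in any of the 3 comparisons, and their median log2 difference with ADAR2 WT against empty vector was -0.24. At an unadjusted p under 0.05 there were 5 of 7 in that comparison, beside 14.1% of all genes, and DESeq2 called 1, Pim1, beside 1.32% of all genes (197 genes). The values went in both directions. The signalling genes Bcl3 and Pim1, also chosen after their values were seen, had -0.41 and -0.36 (limma adjusted p = 0.192 and 0.0605). The cytokine genes Il17a and Il17f had 1.19 and 0.57 (limma adjusted p = 0.0803 and 0.449). Il17a was measured at 6602 and 17878 normalized counts with ADAR2 WT, 2616 and 18145 with ADAR2 E396A, and 2437 and 9279 with empty vector, so that donor B exceeded donor A in every group.

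**Figure D3:**
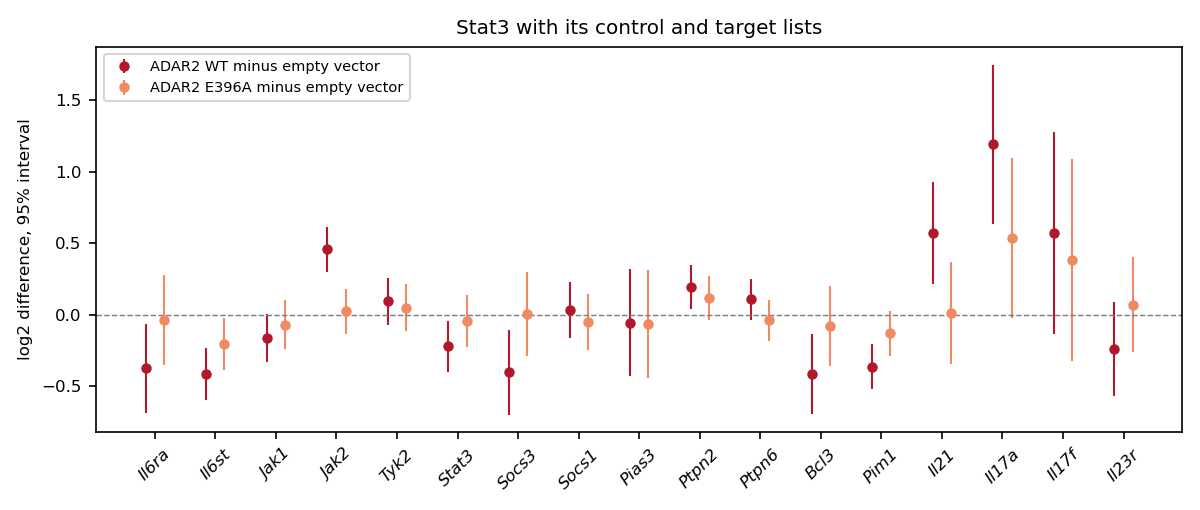
Log2 differences of Stat3 and of the genes listed for its control and its targets, with the limma 95% interval, for ADAR2 WT minus empty vector and ADAR2 E396A minus empty vector. Jak2 at 0.46 is the 1 gene of these that passed, and the cytokine gene Il17a has the largest value, 1.19, with a wide interval.

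BATF is an AP-1 family factor that pairs with JUN proteins and with IRF4, and T cells lacking it do not become Th17 cells. Batf (ENSMUSG00000034266.6, chr12:85686669-85709087, plus strand) had 2164 and 1858 normalized counts with ADAR2 WT, 2004 and 1453 with ADAR2 E396A, and 1500 and 1612 with empty vector. Both ADAR2 WT libraries lay above both empty-vector libraries, and the ADAR2 E396A pair spread across both groups. The log2 difference of ADAR2 WT from empty vector was 0.37 (SE 0.12, 95% interval 0.09 to 0.64, limma adjusted p = 0.229), with 0.53 in donor A and 0.20 in donor B. With ADAR2 E396A against empty vector the donors disagreed, at 0.42 in donor A and -0.15 in donor B.

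IRF4, an interferon regulatory factor family member induced by T cell receptor signalling, is encoded by Irf4 (ENSMUSG00000021356.10, chr13:30749226-30766976, plus strand). Irf4 had 19440 and 18731 normalized counts with ADAR2 WT, 18079 and 16260 with ADAR2 E396A, and 18224 and 16714 with empty vector. The ADAR2 WT libraries were the highest pair, by a small margin over either other group. Its log2 difference was 0.13 from empty vector (SE 0.06, 95% interval -0.01 to 0.27, limma adjusted p = 0.393) and 0.15 from ADAR2 E396A (SE 0.06, 95% interval 0.01 to 0.29, limma adjusted p = 0.360).

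Of 14 listed DNA-binding partners and relatives of the 7 factors, 1 passed, and it was Irf8. This gene encodes a close relative of IRF4 that can likewise pair with BATF. Irf8 had 862 and 827 normalized counts with ADAR2 WT, 1091 and 1202 with ADAR2 E396A, and 1618 and 1219 with empty vector. Both ADAR2 WT libraries were below all the others. Irf8 fell with ADAR2 WT against empty vector by 0.73 on the log2 scale (SE 0.12, limma adjusted p = 0.0416), and the difference from ADAR2 E396A, -0.44, did not pass (SE 0.12, limma adjusted p = 0.217). Over 19 other settings its adjusted p against empty vector ran between 2.58e-13 and 0.808 and passed in 12. Among others, the call was lost without the donor term (limma adjusted p = 0.583) and with a filter at a mean of 100 (0.0619). It was also lost without the mean-variance trend, a fit that called no gene. The call was lost as well when either donor of ADAR2 WT or donor A of empty vector was left out. The log2 difference was -0.70 without donor A of ADAR2 WT and -0.77 without donor B of ADAR2 WT. The median of the 14 was 0.03 with ADAR2 WT against empty vector, and Junb, a JUN partner of BATF chosen after its values were seen, had -0.03. Of the 7 listed targets of MAF, BATF and IRF4, 0 passed in any comparison under limma, edgeR or DESeq2, and 3 of 7 had an unadjusted p under 0.05 with ADAR2 WT against empty vector, beside 14.1% of all genes. The inhibitory receptor gene Ctla4, the most abundant of them, had 0.14 there (limma adjusted p = 0.493).

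MAF, a large leucine-zipper factor that sustains IL-10 and restrains other cytokines in Th17 cells, gave the smallest unadjusted p of the 7 in the direct comparison of the constructs. Maf (ENSMUSG00000055435.6, chr8:115682942-115707794, minus strand) had 3117 and 2537 normalized counts with ADAR2 WT, 4158 and 3100 with ADAR2 E396A, and 3593 and 2653 with empty vector. Donor A was above donor B in every group, and within each donor the order was ADAR2 E396A highest, empty vector next and ADAR2 WT lowest. The log2 difference of ADAR2 WT from ADAR2 E396A was -0.35 (SE 0.07, 95% interval -0.51 to -0.20, limma unadjusted p = 0.000701, adjusted p = 0.119), with -0.42 in donor A and -0.29 in donor B. The log2 difference was -0.13 for ADAR2 WT against empty vector (SE 0.07, limma adjusted p = 0.413) and 0.22 for ADAR2 E396A against empty vector (SE 0.07, 95% interval 0.06 to 0.37, limma adjusted p = 0.999). Of the annotated exon bases of Maf, 440 (5.34%) overlap the antisense gene Gm15655, the largest share for 1 antisense partner after that of Hif1a with Gm15283 (330 bases, 5.60%). Another 148 exon bases of Hif1a (2.51%) are shared with Gm49321 on its own strand. The strand setting of the counting is not given in the sources used here, so reads of such overlaps cannot be assigned with certainty.

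RORA is an orphan nuclear receptor that promotes Th17 differentiation. Rora (ENSMUSG00000032238.17, chr9:68653786-69388246, plus strand) had 4964 and 5854 normalized counts with ADAR2 WT, 5712 and 8433 with ADAR2 E396A, and 6672 and 7233 with empty vector. Both ADAR2 WT libraries lay below both empty-vector libraries. The ADAR2 E396A library of donor B was the highest of the 6, and that of donor A lay between the ADAR2 WT libraries, so this group overlapped both others. The log2 difference of ADAR2 WT from empty vector was -0.37 (SE 0.10, 95% interval -0.59 to -0.14, limma adjusted p = 0.156), a level 0.776 of that with empty vector, with -0.43 in donor A and -0.31 in donor B. Against ADAR2 E396A it was -0.36 (SE 0.10, limma adjusted p = 0.213), with -0.20 in donor A and -0.53 in donor B. ADAR2 E396A differed from empty vector by -0.22 in donor A and 0.22 in donor B.

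Rora is the 1 member that passed in the authors' deposited table for ADAR2 WT, which rests on the 4 libraries of that comparison and called 1.75% of the 11207 genes with an adjusted p (196 genes). The authors' deposited table gives it a log2 fold change of 0.36, running from ADAR2 WT to empty vector and so the other way round from the values above, with SE 0.09 and adjusted p = 0.0113. For Batf the authors' deposited table gives -0.37 in that same reversed direction (adjusted p = 0.148), and for Stat3 0.22 (adjusted p = 0.295). In the authors' deposited table for ADAR2 E396A, 0 of the 7 passed, beside 0.00693% of 28872 genes. With limma on only the 4 libraries of ADAR2 WT and empty vector, Rora, Batf and Stat3 all passed (adjusted p = 1.82e-05, 0.000386 and 0.0240), as did 1221 genes in all, against 122 with the spread taken from all 6 libraries.

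Neither limma, edgeR nor DESeq2 called any gene in any comparison among the listed targets of RORA, the Th17 effector genes, the other factors acting in Th17 cells or the factors of other fates. The counts at an unadjusted p under 0.05 that follow stand beside 14.1% of all genes, for ADAR2 WT against empty vector. Of 6 listed RORA targets, 1 had such a p, and their median log2 difference was -0.03, with a range of -0.44 to 1.19. The lists share genes, so their counts and medians are not separate results. Il17a is listed under the targets of RORA, of STAT3 and of MAF, BATF and IRF4, and under the Th17 effector genes. Il17f is listed under the targets of RORA and STAT3 and the Th17 effector genes. Among 12 Th17 effector genes 4 had an unadjusted p under 0.05, with 8 positive and 4 negative and a median of 0.28, against -0.0025 over all genes tested. Among 15 other factors acting in Th17 cells 3 had an unadjusted p under 0.05, 4 were positive and 11 negative, and the median was -0.12. The 2 most abundant of these, Satb1, a chromatin organiser, and Bhlhe40, a repressor that permits cytokine production, had -0.12 and 0.09 (limma adjusted p = 0.541 and 0.595). Of 7 factors of other T helper fates 1 had an unadjusted p under 0.05, and Gata3, the Th2 factor, had 0.96 with an SE of 0.44 (limma adjusted p = 0.371), against -0.25 for Runx3, which acts in Th1 and CD8 T cells (SE 0.09, limma adjusted p = 0.291).

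The promoters of Rora, Batf and Stat3, the 3 members that differed most between ADAR2 WT and empty vector, are shown with their matches to motifs of the AHR, HIF1A, STAT, BATF, IRF and RORA proteins. No MAF motif was searched. The windows are from RefSeq on GRCm38.p6 and cover 250 bases before to 50 after 1 start per gene, read 5′ to 3′ on the gene's strand. Rora has 6 annotated transcripts, Batf 2 and Stat3 14, and windows at other starts were not searched. Of the 7 members, 5 matched the RefSeq table, the exceptions being Maf and Ahr. For 4 of these 5 the last 30 bases of the window lay near an annotated transcript start. Capitals mark the core motifs of the AHR dimer, GCGTG, and the HIF1A dimer, ACGTG, on either strand, so that CACGC and CACGT mark matches on the minus strand. These searched words share the letters CGTG and differ in the first letter, so each match was counted under 1 of them only. Which dimer can bind a match was not tested.
Rora (chr9:68653536-68653835, plus strand): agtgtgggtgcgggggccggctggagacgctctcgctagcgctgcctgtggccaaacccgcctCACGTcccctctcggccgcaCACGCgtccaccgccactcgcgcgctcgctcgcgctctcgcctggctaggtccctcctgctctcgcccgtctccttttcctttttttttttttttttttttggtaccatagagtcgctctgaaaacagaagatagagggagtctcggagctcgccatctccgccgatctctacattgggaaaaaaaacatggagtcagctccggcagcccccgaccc
Batf (chr12:85686470-85686769, plus strand): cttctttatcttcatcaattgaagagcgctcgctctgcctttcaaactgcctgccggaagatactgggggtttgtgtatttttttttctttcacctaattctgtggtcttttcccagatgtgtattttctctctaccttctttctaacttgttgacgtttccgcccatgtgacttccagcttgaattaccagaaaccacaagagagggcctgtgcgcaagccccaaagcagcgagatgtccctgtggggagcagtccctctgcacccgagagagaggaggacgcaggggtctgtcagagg
Stat3 (chr11:100939491-100939790, minus strand): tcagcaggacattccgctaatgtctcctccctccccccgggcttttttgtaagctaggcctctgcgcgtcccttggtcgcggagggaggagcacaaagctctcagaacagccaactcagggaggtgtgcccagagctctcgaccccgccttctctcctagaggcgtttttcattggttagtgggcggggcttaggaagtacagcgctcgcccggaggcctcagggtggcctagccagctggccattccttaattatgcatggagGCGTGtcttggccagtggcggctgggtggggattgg
The Rora window held 1 match to ACGTG and 1 to GCGTG, the Stat3 window 1 to GCGTG, and the Batf window neither. Of 32851 promoters of the same length, 19.6% held ACGTG and 32.4% held GCGTG on at least 1 strand, so these short words are common. The motifs TTCNNNGAA for STAT factors (8.30% of promoters), TGANTCA for BATF with JUN (7.81%) and AGGTCA for RORA (16.3%), and the interferon-stimulated response element for interferon regulatory factors (3.44%), had no match in these 3 windows, which says only that those letters are not there. Of the other members, the Irf4 window held 1 GCGTG, and the Hif1a window held 3 matches to ACGTG and 1 to AGGTCA. Each strand was counted separately, and the ACGTG matches of Hif1a include the same CACGTG read on both strands. That window thus holds fewer separate ACGTG sites than matches.

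AHR and HIF1A belong to a single family of sensor proteins and share the dimer partner ARNT. AHR is activated by ligands such as tryptophan derivatives and drives IL-22 in Th17 cells. Ahr (ENSMUSG00000019256.17, chr12:35497974-35535038, minus strand) had 1883 and 981 normalized counts with ADAR2 WT, 1871 and 965 with ADAR2 E396A, and 1888 and 908 with empty vector (donors A and B). The 3 libraries of donor A lay close together, and so did the 3 of donor B at a lower level, so that the groups overlapped. The log2 difference of ADAR2 WT from empty vector was 0.05 (SE 0.07, 95% interval -0.12 to 0.22, limma adjusted p = 0.794), that of ADAR2 E396A from empty vector 0.04 (SE 0.07, 95% interval -0.13 to 0.21), and that of ADAR2 WT from ADAR2 E396A 0.02 (SE 0.07, 95% interval -0.15 to 0.19).

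HIF1A is stabilised when oxygen is low and promotes glycolysis and Th17 genes. Hif1a (ENSMUSG00000021109.13, chr12:73901375-73947530, plus strand) had 34641 and 30904 normalized counts with ADAR2 WT, 36175 and 36516 with ADAR2 E396A, and 36169 and 30951 with empty vector. The ADAR2 WT and empty-vector pairs covered nearly the same range, and both ADAR2 E396A libraries were at its upper end. The log2 difference was -0.03 for ADAR2 WT against empty vector (95% interval -0.20 to 0.14), 0.12 for ADAR2 E396A against empty vector (95% interval -0.05 to 0.29) and -0.15 for ADAR2 WT against ADAR2 E396A (95% interval -0.32 to 0.02), with an SE of 0.07 each. Its 5 listed regulators and 15 listed targets had 0 genes that passed in any comparison under limma, edgeR or DESeq2, and 1 and 3 genes with an unadjusted p under 0.05 for ADAR2 WT against empty vector, beside 14.1% of all genes. Egln3, an oxygen sensor that marks HIF1A for destruction and is also its target, had -0.29 with ADAR2 WT against empty vector (limma adjusted p = 0.308). The glycolytic genes Eno1 and Ldha had -0.01 and 0.06 there, against a median of -0.04 over the 15 targets.

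**Figure D4:**
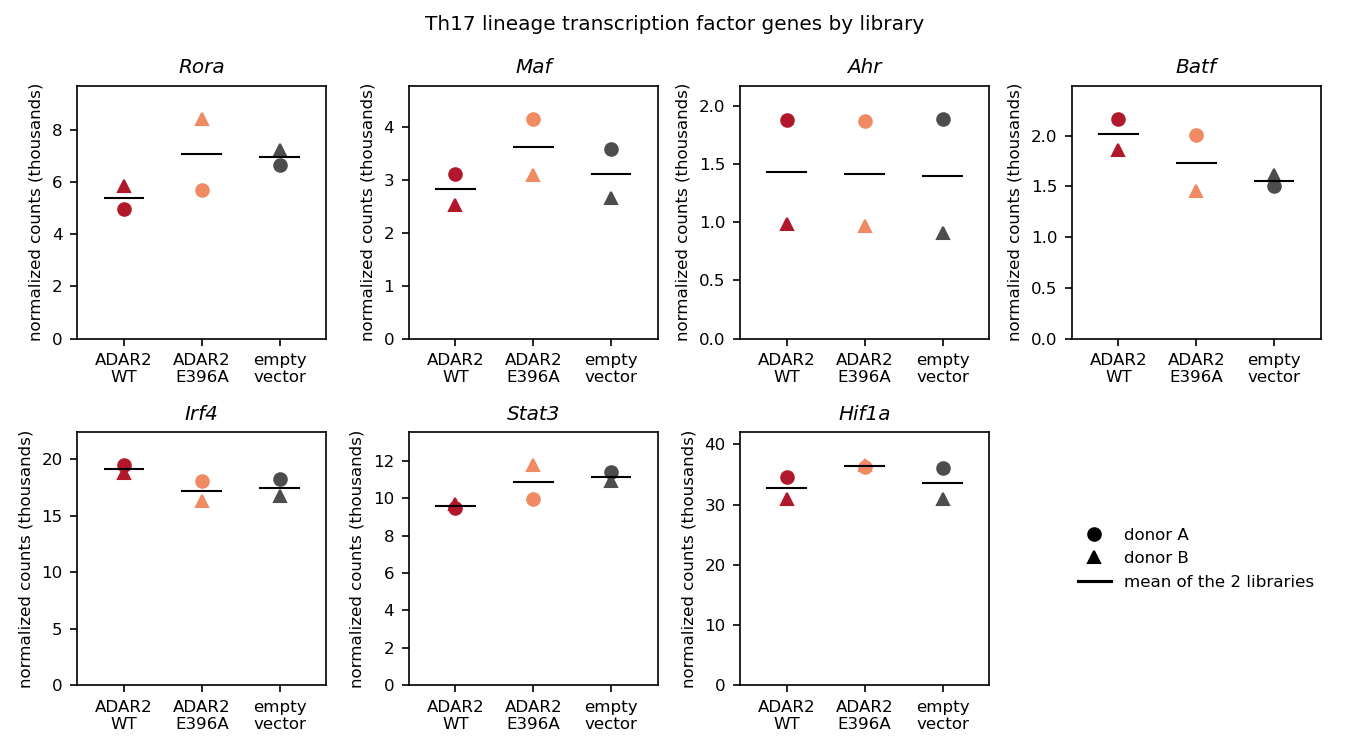
Normalized counts (linear axis from 0) of the 7 genes in each library, by group: ADAR2 WT, ADAR2 E396A and empty vector. Circles mark donor A, triangles donor B and lines the mean of the 2 libraries. The Rora and Stat3 values with ADAR2 WT lie under those with empty vector, those of Batf lie over them, and those of Ahr separate by donor, not by group.

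Ahr differed more between donors A and B than between any of the groups. Donor B minus donor A on the log2 scale was -0.94 with ADAR2 WT, -0.95 with ADAR2 E396A and -1.06 with empty vector. The mean over groups, -0.98, was larger in size than that of 96.8% of all genes tested, whose median size was 0.172, 0.188 and 0.203 in the 3 groups. Maf was also lower in donor B in every group, at -0.30, -0.42 and -0.44 on the log2 scale, and so was Irf4, at -0.05, -0.15 and -0.12. Rora was higher in donor B in every group (0.24, 0.56 and 0.12), and Batf, Stat3 and Hif1a changed sign between groups. Thus 3 of 7 members were lower in donor B in all 3 groups, beside 22.3% of all genes, and 1 was higher in all 3, beside 21.8%. This sets 1 mouse against 1 mouse, so no test was made of it, and the 3 libraries of a mouse are not separate animals. Whether culture, transduction or library preparation was also shared within a donor is not known here. Mouse and handling thus cannot be told apart.

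The listed AHR targets split between donors as well. Tiparp, a feedback inhibitor of AHR, followed Ahr most closely, with donor B minus donor A at -0.74, -0.91 and -0.91 (ADAR2 WT, ADAR2 E396A and empty vector). The other feedback gene, Ahrr, had -0.32, -0.83 and -0.74, and Cyp1a1, the classical detoxification target, had -0.57, -0.29 and -0.33. In the other direction, Cyp1b1 had 0.49, 1.29 and 0.60, and the cytokine gene Il22 had 0.44, 0.35 and 1.16. Nqo1 changed sign between groups. Of the 6 targets, 3 were thus lower in donor B throughout, 2 higher and 1 mixed. Of all genes tested, 22.3% were lower and 21.8% higher in donor B throughout. Of the 12 Th17 effector genes, 2 were lower in donor B throughout and 6 higher (Il17a, Il17f, Il22, Ccl20, Ccr6 and Cd5l), beside those same shares. Genes named here other than Il22, Tiparp, Il17a and Il17f were chosen after their values were seen.

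**Figure D5:**
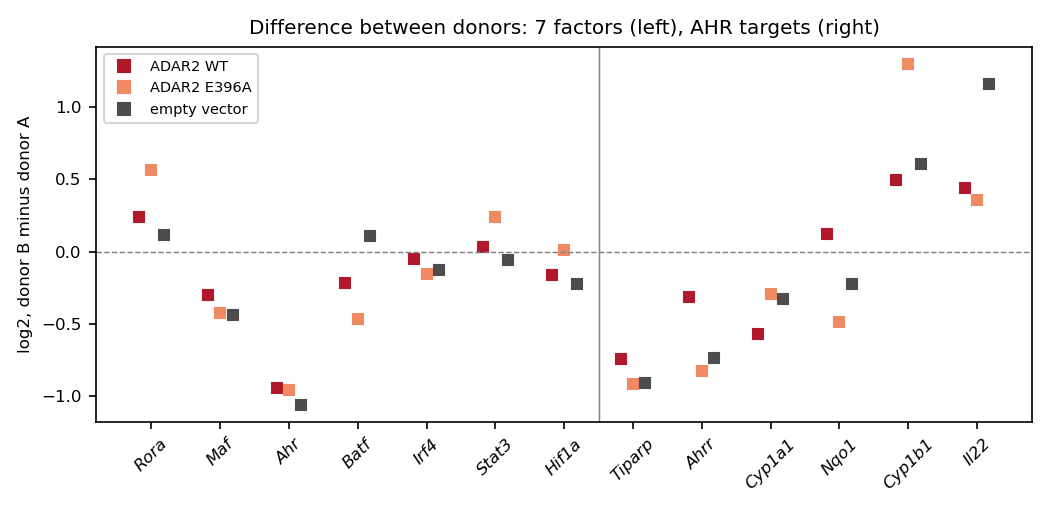
Donor B minus donor A on the log2 scale within ADAR2 WT, ADAR2 E396A and empty vector, for the 7 genes (left) and the 6 listed AHR targets (right). Ahr lies near -1 in all 3 groups (-0.94, -0.95 and -1.06), and Tiparp lies near it, while Cyp1b1 and Il22 lie above 0.

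Ahr and Rora had the widest ranges of the 7 over the 6 libraries, 1.06 and 0.76 on the log2 scale, and Hif1a had the narrowest, 0.24. The genes most like each in pattern were sought among 10210 protein-coding genes averaging 50 normalized counts or more, by the root mean square difference of centred log2 values over the 6 libraries. Near to Ahr were Map4k1 at 0.06 and Tiparp at 0.09, and nearest to Rora were Smim3 at 0.03, Rnd1 at 0.06 and Pde3b at 0.07. Map4k1 encodes a kinase that dampens T cell receptor signalling, and Pde3b a phosphodiesterase that degrades cyclic AMP. The libraries share 2 mice and 3 groups, so nearness over 6 points is a description and carries no p. The Tiparp promoter is shown because this gene is both the listed AHR target nearest to Ahr in pattern and 1 of 4 of the 6 with a GCGTG match, marked in capitals as CACGC on the minus strand (RefSeq, GRCm38.p6, 5′ to 3′).
Tiparp (chr3:65528197-65528496, plus strand): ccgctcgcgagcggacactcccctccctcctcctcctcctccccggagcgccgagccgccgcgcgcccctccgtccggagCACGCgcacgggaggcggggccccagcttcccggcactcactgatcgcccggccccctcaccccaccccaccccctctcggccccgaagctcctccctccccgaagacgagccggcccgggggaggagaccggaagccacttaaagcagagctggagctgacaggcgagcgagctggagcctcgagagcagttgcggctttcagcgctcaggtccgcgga
Cyp1a1 and Cyp1b1 held 1 match each and Ahrr 3, while Nqo1 and Il22 had none in this window. Of all promoters searched, 32.4% held GCGTG.

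With ADAR2 WT against empty vector, AHR targets had a median log2 difference of 0.24, 0 of 6 passed under limma, edgeR or DESeq2 and 1 had an unadjusted p under 0.05, beside 14.1% of all genes. The most abundant of them, Il22, had 0.29 (SE 0.16, limma adjusted p = 0.474), with 0.65 in donor A and -0.08 in donor B, and Tiparp had -0.05. Of 6 genes listed for AHR control 0 passed by any of these tools and 1 had an unadjusted p under 0.05, and the chaperone genes Hsp90ab1 and Hsp90aa1, whose products hold AHR in the cytoplasm, had 0.11 and 0.26 (limma adjusted p = 0.526 and 0.273).

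Other measures also differed between the groups in which the members were compared. Klrd1, which encodes a receptor chain of NK and CD8 T cells, was at 18.4 and 34.6 normalized counts with ADAR2 WT, 104 and 109 with ADAR2 E396A, and 173 and 109 with empty vector. Its log2 difference of ADAR2 WT from empty vector was -2.39 (SE 0.33, limma adjusted p = 0.0248, against 0.555 when donor A of ADAR2 WT and 0.0631 when donor A of empty vector was left out). Over the 5 CD8 and NK cell markers the summed level was 193 and 196 with ADAR2 WT, 262 and 257 with ADAR2 E396A, and 332 and 286 with empty vector, against sums of 64116 to 75394 for the 8 T cell markers. Without Klrd1 the other 4 summed to 175 and 162 with ADAR2 WT, 158 and 148 with ADAR2 E396A, and 159 and 177 with empty vector. The sums with ADAR2 WT were then no longer the lowest, and those with ADAR2 E396A were, by a small margin. The share of reads from mitochondrial ribosomal RNA was 0.328% and 0.278% with ADAR2 WT, 0.299% and 0.239% with ADAR2 E396A, and 0.213% and 0.185% with empty vector. Their part in the differences of Rora, Stat3, Batf, Maf, Jak2 and Irf8 was not tested.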

How the data were processed

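RNA depleted of ribosomal RNA was sequenced from each of the 6 cultures (Illumina NovaSeq, per the labels' protocols). The submitters' processing notes name STAR 2.6.1a, featureCounts, DESeq2 1.18.1 and the mm10 build. Not given in the sources used here are their parameters, the annotation and the strand setting. For each construct the authors deposited a table of 55450 genes. Per the file headers, its library columns are normalized counts, a signal that was 0 or above. Its other columns are, per the file headers, from the authors' own DESeq2 run: the log2 fold change (empty vector minus construct) and its standard error, the p-value, raw and adjusted, and a score, the Wald statistic.

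Dividing each library column by 1 factor gave whole reads for 100% of values, within 0.001 of a read. These columns carry no group name: a library listed in the tables of both constructs was taken as empty vector, any other as the construct of its table. To pair donors, DESeq2 was refitted under each pairing and compared with the authors' deposited Wald statistics. The pairing used differed by at most 0 (ADAR2 WT, 28601 genes) and 1e-04 (ADAR2 E396A, 28872 genes). Crossed donors gave 13.8 and 6.08, and no donor term gave 6.67 and 2.03. The pairing thus comes from deposited statistics and not from a label, so donors cannot be matched to replicate numbers.

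Reads were scaled with median-of-ratios factors. After edgeR's filterByExpr, 14958 genes were tested with limma 3.58.1 in R 4.3.3 on the log2 scale with a pseudocount of 1. The fit took all 6 libraries, with group and donor as terms and a mean-variance trend, which was added after a fit without it had called no gene, and p-values were adjusted over all genes by Benjamini-Hochberg and called under 0.05. The fit was also run on simulated counts, whose spread depended on the mean alone. The fit without the trend had failed that run, so the run is no independent support for the trend. Alternatives were the count tests edgeR 4.0.16 and DESeq2 1.42.0, among others; limma called 122, 2 and 10 genes and edgeR 136, 3 and 10. GENCODE vM21 held all 55450 gene IDs and gave symbols, mm10 positions and exon lengths.

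The members and the 19 other gene lists were chosen with earlier results of these data known. Genes named are the 7 members, from each other list up to 4 passing genes or else the 2 most abundant, and the 3 genes nearest in pattern to the 2 members of widest range, of which 1 is not reported here. Others are said to be chosen after their values were seen.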

Additional observations from a re-analysis of the deposited data

How the results depend on the processing

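Each result was recomputed under 19 alternatives, 17 of them planned and 2 added after seeing the data: edgeR with TMM and no replicate block, and limma without a mean-variance trend. The plan had named no trend. The trend was added to the main fit after a fit without it had called no gene. For the 7 members the direction and the side of the threshold stayed as reported in 357 values, 23 newly passed and 19 changed sign. Counts of genes called are given in the order ADAR2 WT against empty vector, ADAR2 E396A against empty vector, and ADAR2 WT against ADAR2 E396A. They were 2, 1 and 0 without the replicate block, and 1, 1 and 0 with edgeR and no replicate block. Without the block no member passed, as with it, and the calls of Jak2, Irf8 and Klrd1 were lost. Counts were 0, 0 and 0 without the trend, so these calls were lost there as well. The counts were 197, 7 and 105 with DESeq2 and 220, 5 and 102 with no filter. With only the 4 libraries of a comparison they were 1221, 1 and 317, in a fit with a single residual degree of freedom. TMM scaling gave 39 for ADAR2 WT against ADAR2 E396A, and a mean of at least 100 gave 36 for ADAR2 WT against empty vector and 3 for ADAR2 WT against ADAR2 E396A. With 1 library left out, the lone library of its group being assumed to vary like the others, counts ran from 1 to 1217, from 1 to 127 and from 0 to 844.

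With only the 4 libraries, 3 members passed for ADAR2 WT against empty vector (Rora, Batf and Stat3) and 2 for ADAR2 WT against ADAR2 E396A (Rora and Maf). With DESeq2, 1 passed for ADAR2 WT against ADAR2 E396A (Maf). With 1 library left out the number ran from 0 to 3 in each of these comparisons. The cause was not tested.

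Most changes of sign concerned values near 0 for ADAR2 E396A against empty vector. Rora, at -0.0013, became 0.015 with edgeR, 0.0062 with DESeq2, 0.010 with TMM scaling, 0.027 with scaling to total reads, 0.012 with nuclear protein-coding scaling and 0.037 with edgeR and no replicate block. With 1 library left out, values in this comparison ran from -0.19 to 0.19 for Rora, -0.090 to 0.36 for Batf, -0.17 to 0.083 for Stat3, -0.057 to 0.010 for Irf4, -0.014 to 0.090 for Ahr, -0.069 to 0.12 for Jak2 and -0.92 to 0.20 for Klrd1. Without ADAR2 E396A of donor A, Batf was -0.068 and Jak2 -0.0015, and without empty vector of donor A, Rora was 0.14 and Stat3 0.053. Irf4 became 0.0027 with scaling to total reads. For ADAR2 WT against ADAR2 E396A, Ahr became -3.6e-06 with nuclear protein-coding scaling and ran from -0.017 to 0.049 with 1 library left out (-0.0050 without ADAR2 E396A of donor A). For ADAR2 WT against empty vector, Hif1a ran from -0.10 to 0.042. Depth was at least 850 reads per member and library.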
